A study of Komagataella phaffii CBS 7435 with 54 samples.

Results

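The transcripts of the actin gene *ACT1* (PAS_chr3_1169) and of the translation elongation factor gene *TEF1* (PAS_FragB_0052) were followed in *Pichia pastoris* from moderate to near-zero growth. Both were found on the array by their systematic names, and each is represented by 1 of 5371 probes, so 2 of the 5371 probes are described. All cultures held 1 strain background, the Δ*flo8* mutant of CBS 7435. It is a single-colony isolate in which a KanMX cassette replaced the 5' part of *FLO8*, which encodes a transcription factor of filamentous growth and adhesion, and the sample labels name only CBS 7435. Glucose-limited aerobic cultures grew at 25°C and pH 5.85 either as chemostats in steady state, diluted at 0.1, 0.075, 0.05 or 0.025 h-1, or as retentostats. In a retentostat a filter holds the cells back in the vessel while medium flows on, so the growth rate declines with time. These cultures started from a steady-state chemostat, ran in other bioreactors than the chemostat series and were sampled after 21, 65, 116, 380 and 545 h, named here day 1, day 3, day 5, day 16 and day 23. RNA of every culture was hybridized together with a reference pool of *P. pastoris* cells from many media, carbon sources, growth phases and stresses, and the measurement is the log2 ratio of culture over pool.

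Actin polymerizes into the filaments of the yeast cytoskeleton, the tracks for vesicle transport to the bud and the framework of endocytic patches. *TEF1* encodes eEF1A, the abundant GTP-binding protein that brings aminoacyl-tRNA to the ribosome. Both genes are customary internal references for transcript quantification in yeasts, and the *TEF1* promoter is used as a strong constitutive promoter for heterologous genes. A reference gene should keep the same level relative to total RNA in every condition compared. LOESS normalization centers the log2 ratios of probes of similar intensity on each array. The 9 conditions thus served to measure how constant each gene was relative to other probes, and its level relative to total RNA was not measured.

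Each condition had 3 numbered replicates, and each replicate was measured on a pair of arrays with opposite dyes, which gave 54 arrays. The paper describes duplicate cultures and labeling in triplicates, so the 3 replicates are not 3 separate cultures, and SDs and p values cover the spread between these numbered replicates. Each of the 2 probes was spotted 2 times per array. Of 216 readings per gene over all spots, channels and arrays, all 216 were well above background, 0 were saturated and 0 carried an outlier mark. Background-subtracted culture signals ran from 35622 to 292254 units for *ACT1* and from 28082 to 425166 units for *TEF1*. The labeled pool channel of all 54 arrays was closer to the mean pool profile than the culture channel was. Arrays came from 9 slides and 2 scanners, each condition lay on 3 or 4 slides, and all conditions except day 23 had arrays from both scanners. The median culture signal of all probes was 3960 to 4783 units on chemostat arrays and 2065 to 2681 units on retentostat arrays. Precision is limited by the number of separate cultures and not only by that of arrays. Over all probes the SD between the numbered replicates of a condition had a median of 0.0773 on the log2 scale.

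*ACT1* ratios of culture over pool stayed within a 1.24-fold range over the 9 conditions. They were highest in the fastest chemostat and lowest on days 1 and 3 of the retentostat, whose replicates overlapped, and they were closer to the starting level on day 23. Day 3 had the lowest mean after LOESS normalization and day 1 under median centring. In the chemostat at 0.1 h-1 the log2 ratios of the 3 replicates were 0.048, −0.025 and −0.024. At 0.075 h-1 they were −0.21, −0.28 and −0.15, and at 0.05 h-1 they were −0.19, −0.21 and −0.24, so both of these chemostats lay below all replicates of 0.1 h-1. At 0.025 h-1 the replicates read −0.024, −0.070 and −0.0037 and overlapped with those at 0.1 h-1.

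In the retentostat, the *ACT1* replicates were −0.22, −0.32 and −0.29 on day 1, and day 3 gave −0.28, −0.32 and −0.34. On day 5 they were −0.26, −0.19 and −0.26. On day 16 they were −0.20, −0.21 and −0.27, and on day 23 they were −0.062, −0.080 and −0.14. All replicates of the first 4 times were therefore below all replicates of day 23, and day 23 itself was below 0.1 h-1 without overlap. In the order of the condition means, the neighbors 0.1 h-1, 0.025 h-1 and day 23 overlapped from one to the next, a gap of 0.12 without overlap followed, and the other 6 conditions overlapped from one to the next.

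Relative to 0.1 h-1, the *ACT1* ratio fell in 7 of the 8 comparisons by the adjusted p value of limma alone, and in 0 of 8 by more than 2-fold. The log2 difference was −0.21 (SE 0.041, adjusted p = 0.000759) at 0.075 h-1 and −0.22 (adjusted p = 0.000142) at 0.05 h-1. At 0.025 h-1 it was −0.032, with a 95% confidence interval from −0.12 to 0.052 (adjusted p = 0.507). The difference on day 3 was −0.31 (adjusted p = 1.76e-07), a 1.24-fold lower ratio. Day 1 gave −0.28 (adjusted p = 1.49e-06), day 5 gave −0.24 (adjusted p = 9.52e-06) and day 16 gave −0.22 (adjusted p = 2.16e-05). On day 23 the difference was −0.092 with an interval from −0.18 to −0.0077 (adjusted p = 0.0404). The call at 0.075 h-1 was lost with slide as a fixed block (−0.21, adjusted p = 0.144), while scanner as a fixed block kept it (−0.21, adjusted p = 0.0313). At 0.05 h-1 both terms kept the call (adjusted p = 0.0244 and 0.00814). These block fits count both arrays of a replicate as separate values. The first scanner alone gave −0.19 at 0.075 h-1 and −0.13 at 0.05 h-1, and the second −0.29 and −0.36. The call on day 23 was lost with slide (−0.10, adjusted p = 0.246) and scanner (−0.093, adjusted p = 0.183) as a block, and also without replicate 1 at 0.1 h-1 (−0.068, adjusted p = 0.169), without replicate 2 of day 23 (−0.099, adjusted p = 0.0587) and without replicate 3 of day 23 (−0.070, adjusted p = 0.153). With the scanner software's own ratio the sign turned (0.012, adjusted p = 0.802). Of all probes, the same adjusted p criterion called 19.4%, 48.1% and 63.7% in the chemostats at 0.075, 0.05 and 0.025 h-1 and 78.2%, 82.4%, 83.5%, 84.1% and 84.3% at the 5 retentostat times in order. All 8 comparisons share the replicates of 0.1 h-1 and are not independent of one another. The 95% intervals of all 8 *ACT1* differences lay within 2-fold in either direction. Under median centring of each array in place of LOESS, *ACT1* differed more from 0.1 h-1, by −0.24 (adjusted p = 0.00226) at 0.025 h-1 and by −0.29 on day 23, and its range over the 9 conditions was 0.51.

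**Figure D1:**
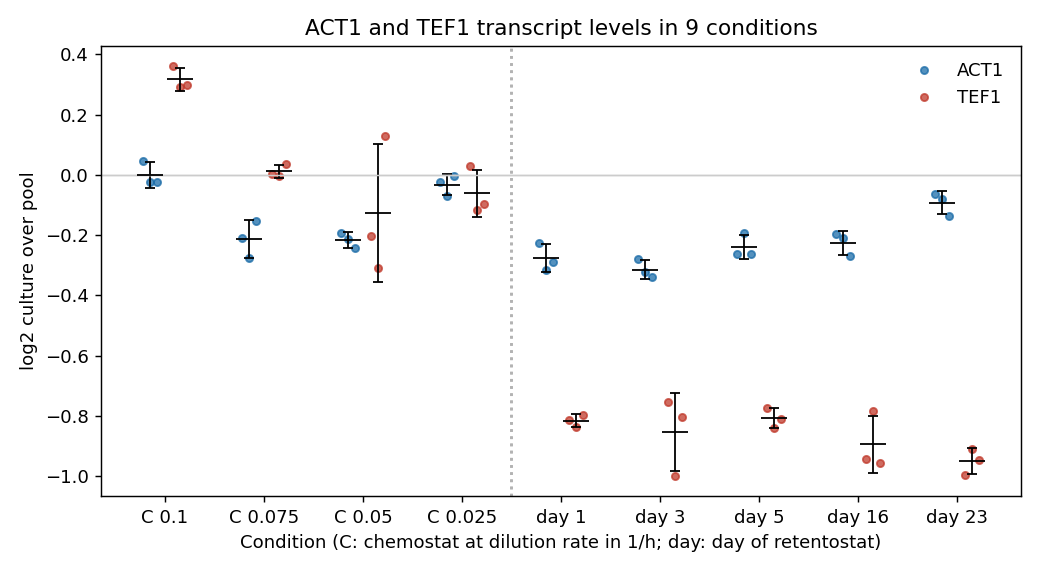
Log2 ratio of culture over pool (y axis) of *ACT1* (blue) and *TEF1* (red) in the 4 chemostats and on the 5 retentostat days (x axis). Each point is 1 replicate, the mean of 2 arrays with opposite dyes, and black bars give mean and SD (n = 3). The *TEF1* points of all retentostat days lie between −0.998 and −0.75, below all chemostat points, while *ACT1* stays between −0.34 and 0.048 throughout.

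The *TEF1* ratio of culture over pool behaved differently and was more than 2-fold lower throughout the retentostat than in the fastest chemostat. The culture channel alone, described below, fell from 5.71 at 0.1 h-1 to between 5.17 and 5.32 on the retentostat days, which is less than 2-fold. This comparison also changed the bioreactor. The *TEF1* replicates at 0.1 h-1 read 0.36, 0.29 and 0.30, above every other *TEF1* replicate of the series. They read 0.0027, −0.0026 and 0.037 at 0.075 h-1 and 0.029, −0.12 and −0.098 at 0.025 h-1. At 0.05 h-1 they were −0.20, −0.31 and 0.13, with an SD of 0.23 against 0.021 to 0.13 in the other 8 conditions. Replicate 3 at 0.05 h-1 was thus the only *TEF1* replicate outside 0.1 h-1 that exceeded 0.1, and the 3 slower chemostats overlapped with one another. Replicates 1 and 2 at 0.05 h-1 each had 1 array on the same slide, which read −0.75 (culture in Cy3) and −0.44 (Cy5). Their other arrays read 0.35 (Cy5) and −0.18 (Cy3), and those of replicate 3 read −0.18 (Cy3) and 0.44 (Cy5). The 2 arrays of a replicate were thus furthest apart in replicate 1 and closest in replicate 2, and the cause was not tested.

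Retentostat samples formed a separate low level for the elongation factor. The *TEF1* replicates were −0.81, −0.84 and −0.79 on day 1, and day 3 gave −0.75, −0.998 and −0.80. They were −0.77, −0.84 and −0.81 on day 5, −0.94, −0.78 and −0.95 on day 16, and −0.99, −0.91 and −0.95 on day 23. The 15 retentostat values ran from −0.998 to −0.75 and the 12 chemostat values from −0.31 to 0.36, so these ratios did not overlap between the systems, whereas the culture channel read alone did, as given with the channel readings. Between neighbors in the order of means, the gap from 0.05 h-1 down to day 5, the highest retentostat mean, was 0.68, whereas the 5 retentostat days overlapped from one to the next with gaps of 0.0087 to 0.057.

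By the adjusted p value of limma alone, *TEF1* fell in 8 of 8 comparisons with 0.1 h-1, and it passed the 2-fold criterion as well in 5 of 8, which were the 5 retentostat days. The log2 differences were −0.30 (SE 0.077, adjusted p = 0.00691) at 0.075 h-1, −0.44 (adjusted p = 5.37e-05) at 0.05 h-1 and −0.38 (adjusted p = 0.000168) at 0.025 h-1, or 1.23-, 1.36- and 1.30-fold lower ratios. Without replicate 3 the difference at 0.05 h-1 was −0.57. Day 1 stood at −1.13 (adjusted p = 2.36e-12), day 3 at −1.17 (adjusted p = 7.74e-13) and day 5 at −1.12 (adjusted p = 1.45e-12). Day 16 stood at −1.21 (adjusted p = 3.26e-13) and day 23 at −1.27 with an interval from −1.42 to −1.11 (adjusted p = 1.28e-13), a 2.41-fold lower ratio. The intervals of days 1 and 5 reached up to −0.97 and −0.96 and so included an exactly 2-fold change. Of all probes, the 2-fold criterion called 10.3%, 16.7%, 19%, 20.2% and 20.8% at the 5 retentostat times in order and 0.242% and 1.42% at 0.05 and 0.025 h-1. At 0.075 h-1 limma called 0% of the probes, while 1695 probes had an unadjusted p under 0.05 and 1044 an adjusted one.

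**Figure D2:**
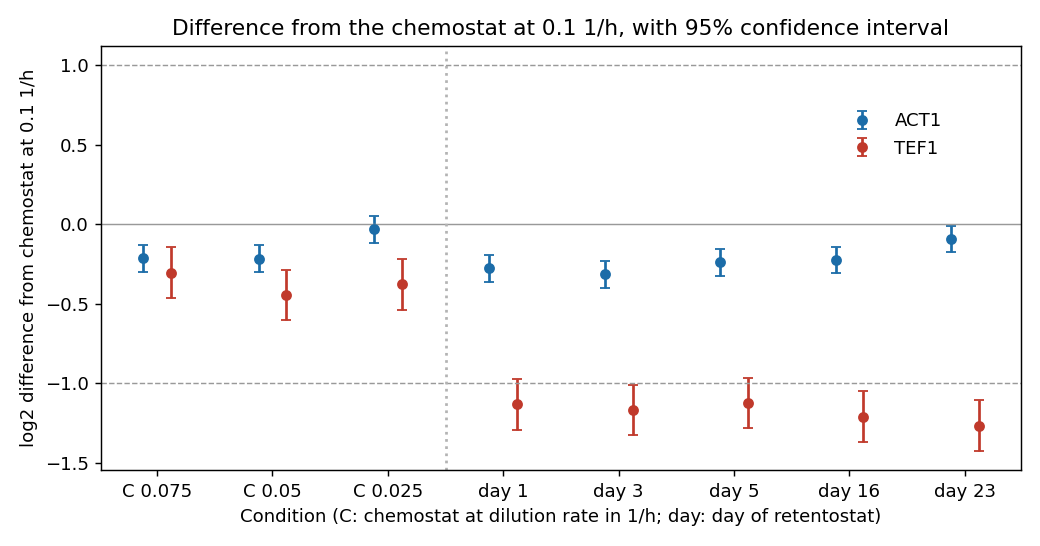
Log2 difference of each condition from the chemostat at 0.1 h-1 (y axis) for *ACT1* (blue) and *TEF1* (red), with 95% confidence intervals from the limma model. Dashed lines mark a 2-fold change, and the dotted line separates chemostats from retentostat days. All *ACT1* intervals stay between the dashed lines, and the 5 *TEF1* retentostat estimates lie beyond the lower one, between −1.27 and −1.12.

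The lower *TEF1* ratios of the retentostat appeared in both dye orientations and on both scanners. With the culture in Cy3 the differences of the 5 days from 0.1 h-1 ran from −1.45 to −1.15, and with the culture in Cy5 from −1.09 to −1.01. The probe itself read higher in Cy5, by a mean of 0.45 ± 0.27 (SD, 27 pairs) and in 26 of 27 pairs, and the *ACT1* probe by 0.13 ± 0.14 in 25 of 27 pairs. Every replicate held both orientations, so this dye offset cancelled in its mean. Among arrays of the first scanner alone the *TEF1* differences were −1.17, −1.24, −1.12, −1.30 and −1.29 in order of time. The second scanner gave −1.02, −1.02, −1.04 and −1.03 for the first 4 times, with 1 array of 0.1 h-1 and 0 arrays of day 23. The 3 chemostat differences of *TEF1* depended on the batch terms: with slide as a fixed block they were −0.28 (adjusted p = 0.531), −0.48 (adjusted p = 0.0699) and −0.34 (adjusted p = 0.197) at 0.075, 0.05 and 0.025 h-1. At 0.05 h-1 the first scanner alone gave −0.71 and the second −0.13. For *ACT1* on day 3, the first scanner gave −0.26 and the second −0.42. No p values are given for single scanners, since the second has a single array of 0.1 h-1 and the first counts arrays of 1 replicate separately.

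Each channel was also read alone, as the log2 of the background-subtracted spot signal over the median spot signal of that channel and array. In the culture channel, *TEF1* was 5.71 ± 0.15 (SD, n = 3) at 0.1 h-1 and 5.39 ± 0.098 at 0.025 h-1. At the retentostat times in order it was 5.22 ± 0.11, 5.32 ± 0.24, 5.32 ± 0.081, 5.17 ± 0.10 and 5.31 ± 0.024, and the range over the 9 conditions was 0.53 or 1.45-fold. Here the systems overlapped: replicates reached up to 5.56 on day 3 and 5.40 on day 5, while those at 0.05 and 0.025 h-1 started at 5.38 and 5.29. All retentostat replicates were below those at 0.1 h-1, the lowest of which read 5.58. In the pool channel, which received the same RNA on all arrays, *TEF1* was 5.35 ± 0.19 at 0.1 h-1, 5.72 ± 0.14 at 0.025 h-1, 6.21 ± 0.11 on day 1 and 6.34 ± 0.049 on day 23. The pool reading thus ranged over 0.98, or 1.98-fold, and more of the change in the *TEF1* ratio lay in the pool channel than in the culture channel. For *ACT1*, the culture channel ranged over 0.40 (1.32-fold) and the pool channel over 0.49 (1.40-fold). Its culture channel read 5.12 ± 0.11 at 0.1 h-1, 4.88 ± 0.045 at 0.075 h-1, 4.96 ± 0.053 at 0.05 h-1 and 4.91 ± 0.074 at 0.025 h-1. In the retentostat it read, in order of time, 4.98 ± 0.13, 5.12 ± 0.11, 5.14 ± 0.14, 5.06 ± 0.10 and 5.28 ± 0.079, the last being the highest of the 9 means. The lower *ACT1* ratios of days 3 and 5 thus had no counterpart in the culture channel, and on day 23 that channel was above 0.1 h-1, while the pool channel went from 5.05 ± 0.14 at 0.1 h-1 to 5.54 ± 0.054 on day 3 and 5.44 ± 0.049 on day 23. These channel readings were not tested. The retentostat arrays were also those with the lower median culture signal given above. The part of this array-wide signal in the *TEF1* ratio was not tested.

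**Figure D3:**
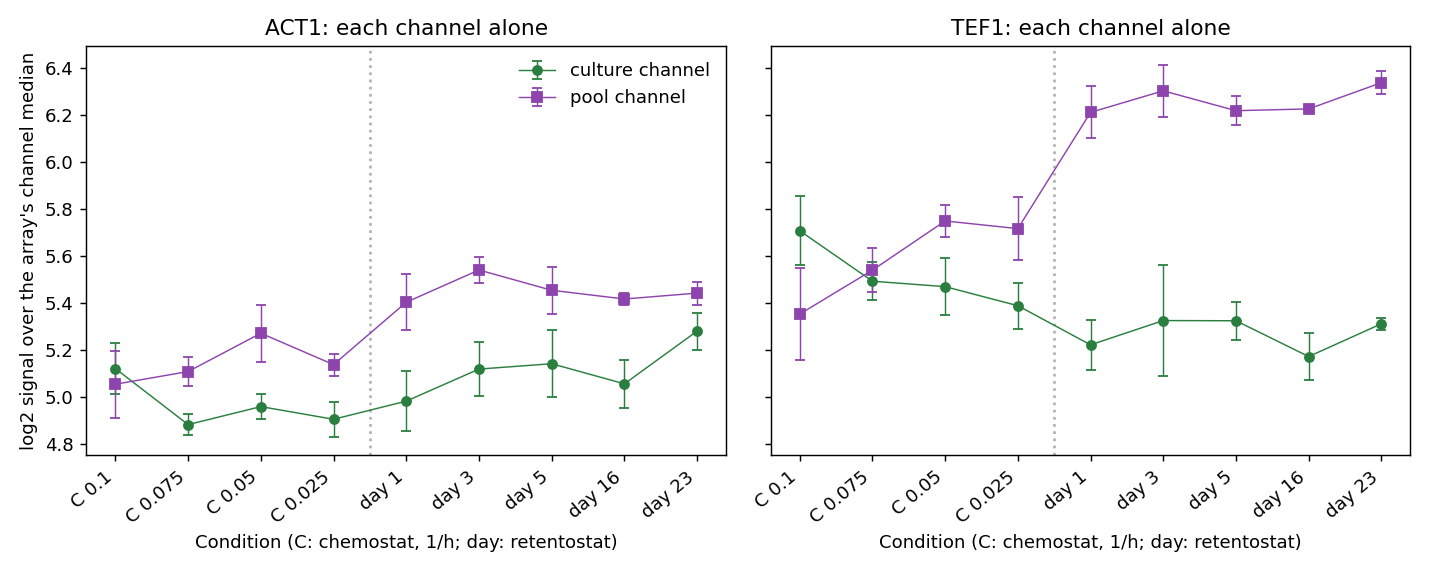
Log2 spot signal of *ACT1* (left) and *TEF1* (right) over the median of the same channel and array (y axis), in the culture channel (green circles) and the pool channel (purple squares), as mean and SD of 3 replicates in the 9 conditions (x axis). The pool channel of *TEF1* moves from 5.35 at 0.1 h-1 to 6.34 on day 23, and its culture channel from 5.71 to 5.31.

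Because both genes were measured on the same arrays, their distance within a replicate does not depend on a factor common to all probes. *ACT1* minus *TEF1* was −0.31, −0.32 and −0.32 at 0.1 h-1, a mean of −0.32 ± 0.0043. It averaged −0.23 ± 0.043 at 0.075 h-1, −0.089 ± 0.25 at 0.05 h-1 and 0.029 ± 0.075 at 0.025 h-1. In the retentostat the means, in order of time, were 0.54 ± 0.045, 0.54 ± 0.12, 0.57 ± 0.070, 0.67 ± 0.086 and 0.86 ± 0.065, and on day 23 the replicates read 0.93, 0.83 and 0.81. The 12 chemostat values lay between −0.37 and 0.098 and the 15 retentostat values between 0.46 and 0.93, without overlap. Over the 9 conditions the distance changed by 1.17, so that a ratio scaled to *ACT1* would differ 2.26-fold from the same ratio scaled to *TEF1*. Part of this change lay in the pool channel, which received the same RNA on all arrays. At 0.1 h-1 *ACT1* and *TEF1* read 5.05 and 5.35 in the pool channel and 5.12 and 5.71 in the culture channel. On day 23 they read 5.44 and 6.34 in the pool channel and 5.28 and 5.31 in the culture channel.

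The difference between the genes was tested by scaling all probes of a replicate to *ACT1* and refitting the model. Relative to *ACT1*, *TEF1* was 2.26-fold lower on day 23 than at 0.1 h-1, a log2 difference of −1.17 with an interval from −1.34 to −1.004 (adjusted p = 7.32e-13). The differences on days 1, 3, 5 and 16 were −0.86 (adjusted p = 5.41e-10), −0.85 (adjusted p = 4.41e-10), −0.88 (adjusted p = 2.22e-10) and −0.99 (adjusted p = 2.39e-11). In the chemostats, the difference was −0.35 (adjusted p = 0.000848) at 0.025 h-1 and −0.23 (adjusted p = 0.0167) at 0.05 h-1, and at 0.075 h-1 the value of −0.092 had an interval from −0.26 to 0.078 (adjusted p = 0.316).

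**Figure D4:**
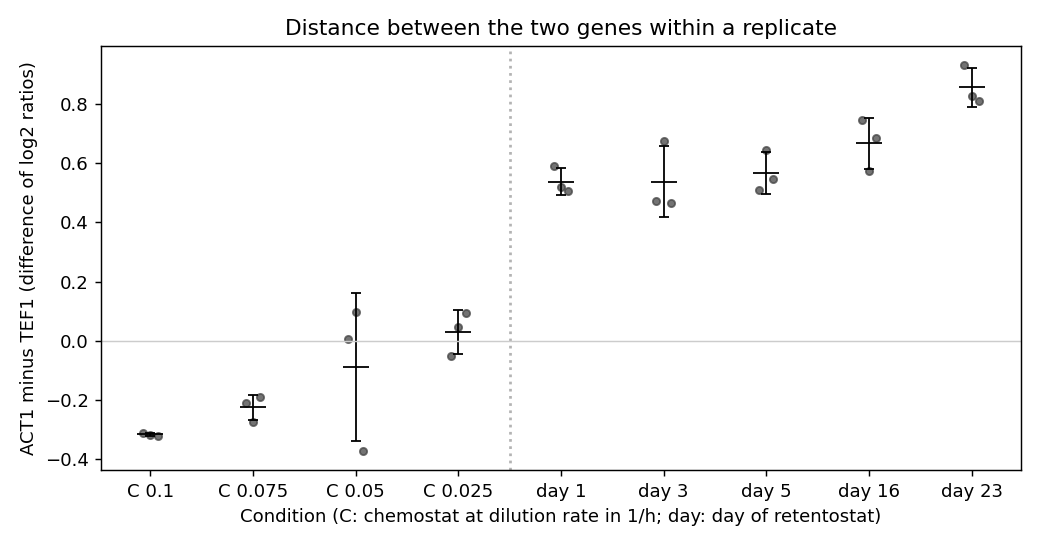
*ACT1* minus *TEF1*, the difference of their log2 ratios within a replicate (y axis), in the 9 conditions (x axis), with single replicates as points and mean and SD as bars (n = 3). The distance runs from −0.32 at 0.1 h-1 to 0.86 on day 23, and all retentostat points lie above all chemostat points.

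Trends were taken within each culture system, since the systems used different bioreactors. Over the 4 chemostats, *TEF1* rose by 0.16 on the log2 scale per doubling of the dilution rate (SE 0.036, adjusted p = 0.000433), while the *ACT1* slope of −0.011 had an interval from −0.051 to 0.029 (adjusted p = 0.63), and 65.5% of all probes had a chemostat slope with an adjusted p under 0.05. The *TEF1* call was lost with slide (0.15, adjusted p = 0.195) or scanner (0.16, adjusted p = 0.0671) as a fixed block, and the sign of the *ACT1* slope turned under median centring in place of LOESS (0.085, adjusted p = 0.0167). *ACT1* rose by 0.034 per doubling of the run time (SE 0.0076, adjusted p = 0.00027), and the *TEF1* slope was −0.026 with an interval from −0.055 to 0.0039 (adjusted p = 0.108). This *TEF1* slope passed the threshold without replicate 3 at 0.05 h-1 (−0.026, adjusted p = 0.0312) and without replicate 2 of day 3 (−0.030, adjusted p = 0.0467). A retentostat slope was called for 74.7% of all probes. The slopes of the 2 genes differed in both systems: relative to *ACT1*, the *TEF1* slope was 0.17 per doubling of the dilution rate (adjusted p = 0.000456) and −0.060 per doubling of the run time (adjusted p = 0.00109). A moderated F test over the 5 times gave adjusted p = 0.000391 for *ACT1* and adjusted p = 0.361 for *TEF1*, with 83.6% of all probes called. The F test over all 9 conditions called both genes (adjusted p = 3.12e-07 for *ACT1* and 1.39e-14 for *TEF1*) along with 97.4% of all probes.

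Between successive conditions, the ratios of both genes moved at the entry into the retentostat. From the chemostat at 0.025 h-1 to day 1, the *TEF1* ratio fell by 0.75 (SE 0.077, adjusted p = 1.99e-08), or 1.69-fold. The *ACT1* ratio fell by 0.24 (SE 0.041, adjusted p = 2.11e-05), with 58.1% of all probes called. This step also changed the bioreactor, and the 2 cannot be told apart. In the same step the culture channel read alone went from 5.39 to 5.22 for *TEF1* and from 4.91 to 4.98 for *ACT1*. The pool channel went from 5.72 to 6.21 for *TEF1* and from 5.14 to 5.40 for *ACT1*. These channel steps were not tested. From 0.05 to 0.025 h-1 the *ACT1* ratio rose by 0.18 (adjusted p = 0.000795, 46.5% of all probes called), whereas that of *TEF1* differed by 0.066 (adjusted p = 0.5). Here the *ACT1* culture channel went from 4.96 to 4.91 and its pool channel from 5.27 to 5.14. From 0.075 to 0.05 h-1 the differences were −0.0036 for *ACT1* (adjusted p = 0.96) and −0.14 for *TEF1* (adjusted p = 0.19), with 24.6% of all probes called. Neither gene was called in any of the 4 steps between successive retentostat times, where 44.6%, 11.6%, 40.6% and 4.58% of all probes were. The *ACT1* difference in the last of them, from day 16 to day 23, was 0.13 with an unadjusted p of 0.00364 and an adjusted p of 0.0637. From day 1 to day 23 *ACT1* rose by 0.18 (adjusted p = 0.000335), and the *TEF1* difference was −0.13 with an interval from −0.29 to 0.024 (adjusted p = 0.123), with 70.4% of all probes called.

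By the LOESS-normalized ratios over the 9 conditions, actin was among the steadier transcripts on the array and the elongation factor was not. The culture channel alone ranged over 0.40 for *ACT1* and 0.53 for *TEF1*, and it was not ranked among all probes. Under median centring the ranges of the ratios were 0.51 for *ACT1* and 1.44 for *TEF1*. The *ACT1* range over the 9 condition means was 0.31, and 606 of 5371 probes (11.3%) had a smaller one. The *TEF1* range was 1.27 (2.41-fold), and 4380 probes (81.5%) had a smaller one, while the median over all probes was 0.69 or 1.61-fold. Spread between replicates was also small for *ACT1*, with a pooled within-condition SD of 0.041 that 3.45% of the probes undercut, against 0.0997 and 77.6% for *TEF1*. Taken by culture system, the picture changed for *TEF1*. Over the 5 retentostat days its range was 0.14, smaller than that of *ACT1* at 0.22, and only 10.5% of the probes varied less, compared with 25.2% for *ACT1*. Over the 4 chemostats the ranges were 0.44 for *TEF1* (76.8% of the probes smaller) and 0.22 for *ACT1* (34.5%). The mean of both genes had a range of 0.74 or 1.67-fold over the 9 conditions, and 54.3% of the probes had a smaller one.

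Used as a reference for the whole table, the 2 genes led to different counts of called probes. These counts rest on the ratios of culture over pool. For *TEF1* the pool channel ranged over 0.98 and the culture channel over 0.53, and scaling by the culture channel alone was not tested. Without a reference gene, after LOESS normalization alone, 1375 probes (25.6%) were called at over 2-fold in any of the 8 comparisons. Scaled to *ACT1* the count was 1625 (30.3%), scaled to *TEF1* it was 4132 (76.9%) and scaled to the mean of both it was 2582 (48.1%). The calls under *ACT1* included 1258 of those made without a reference gene, 91.5% of the latter and 77.4% of the former. Under *TEF1* the shared calls were 947, or 68.9% of those without a reference gene and 22.9% of those under *TEF1*.

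Scaling subtracts the ratio of the reference gene from all probes. The center of all log2 differences therefore had to move by the amount that this ratio had moved. On day 23 the median difference of all probes from 0.1 h-1 was 0.058 without a reference gene, 0.15 under *ACT1*, 1.32 under *TEF1* and 0.74 under the mean of both. The direction of the calls shifted with it. Without a reference gene 661 probes were called higher and 454 lower on day 23, so 59.3% were higher. Under *ACT1* it was 770 higher and 390 lower (66.4% higher), under *TEF1* 3704 higher and 54 lower (98.6%), and under the mean of both 1889 higher and 155 lower (92.4%). On day 3, *ACT1* moved the split from 640 higher and 258 lower (71.3% higher) to 1023 higher and 119 lower (89.6%). At 0.05 h-1, with few calls, the share called higher went from 69.2% of 13 to 93.9% of 33. In the chemostat at 0.025 h-1, where *ACT1* was near its level at 0.1 h-1, 76 probes were called without a reference gene and 83 under *ACT1*, 76 of them in common, and 315 were called under *TEF1*.

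**Figure D5:**
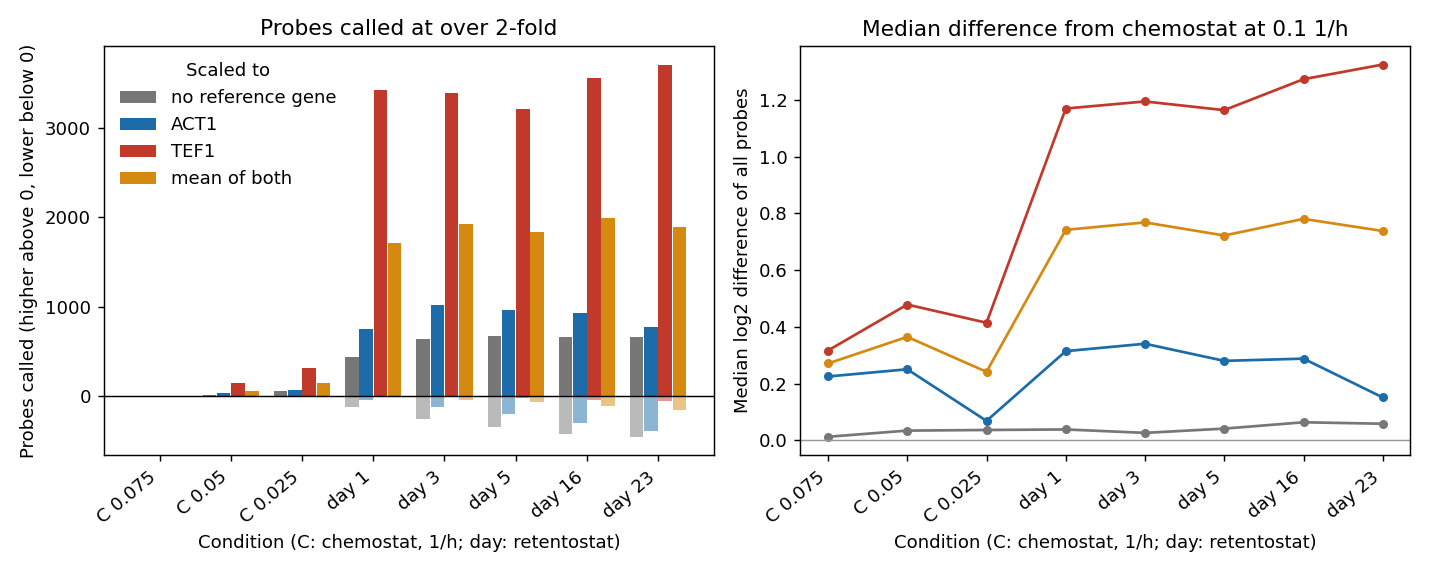
Left, probes called at an adjusted p below 0.05 and over 2-fold in each comparison with the chemostat at 0.1 h-1 (x axis), higher above 0 and lower below 0 (pale), without a reference gene (gray) and scaled to *ACT1* (blue), *TEF1* (red) or the mean of both (orange). Right, median log2 difference of all probes (y axis) under the same scalings, which on day 23 is 0.058, 0.15, 1.32 and 0.74.

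Other transcripts shared the profile of each gene to a different extent. Likeness was measured as the root mean square difference between the 9 condition means of 2 probes, each centered on its own mean. *ACT1* and *TEF1* differed by 0.41 on this measure. Within 0.1 of *ACT1* there were 139 other probes, the closest of them PAS_chr2-1_0475 at 0.042 and PAS_chr3_0211 at 0.051, with ranges of 1.23-fold and 1.19-fold over the 9 conditions. Within 0.1 of *TEF1* there were 3 other probes, the closest being PAS_chr1-4_0648 at 0.084 and PAS_chr4_0063 at 0.086. Their log2 differences on day 23 were −1.08 and −1.23. The gene table used here gives no names for these identifiers.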

How the data were processed

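Two-color arrays of 27 replicates in 9 conditions were analyzed, each replicate on 2 arrays with opposite dyes. The authors deposited scanner output from Feature Extraction 11.5.1.1, in which spot signals (medians) and their local background are intensities without normalization, with marks for outlier, saturated and well-above-background spots as other values per spot. The same deposited files hold a log10 ratio per spot, computed by the scanner software. A processed table deposited by the authors gives log2 ratios for the probes, made with limma (normexp, LOESS and Aquantile), of which 18 of 54 columns ran as pool over culture; it was used as an alternative only, turned by correlation with the scanner output. Its column medians lay between −0.026 and 0.034. No deposited file used here holds comparisons made by the authors.

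Median signals were corrected with normexp (offset 50), with 536 control spots per array given no weight, normalized by LOESS within arrays in limma 3.58.1 (R 4.3.3, statmod 1.5.0), and averaged per probe after 0.676% of spots with an outlier mark had been left out. The share of spots well above background in the culture channel was 89.9% to 98.4% per array. Ratios of the 2 arrays of a replicate were averaged. Condition means were fitted to all 27 replicates with lmFit and eBayes (18 residual and 5.38 prior degrees of freedom), with contrasts for the comparisons, slopes on the log2 dilution rate or run time, and Benjamini-Hochberg adjustment over all 5371 probes. Calls were made at an adjusted p below 0.05, alone or with a change over 2-fold. For use as references, the log2 ratio of a gene, or the mean of both, was subtracted from all probes of a replicate and the model refitted without the reference probes. The fit was tested on simulated data.

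Alternatives covered background correction, normalization, ratio source, spot and probe filters, single arrays with pair, slide, scanner or dye terms, the replicate number as a block, fewer conditions and each replicate left out. Fits of each scanner alone were added after the data were seen. The genes and lists were chosen with earlier results of these data known. By the rule for named genes, both members and the 3 probes with the most similar profiles to each were taken, of which 2 each are named. Planned lists of other translation elongation, actin cytoskeleton and customary reference genes were not analyzed, since the gene table used here (assembly ASM2700v1; 5040 of 5318 systematic names matched) gives locus tags in place of names. The names *ACT1* and *TEF1* come from the selection rule and not from the array files. No sequences or coordinates are given, as the array files name no genome build.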

Additional observations from a re-analysis of the deposited data

How the results depend on the processing

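Of 388 values under other settings, 360 were judged the same, as were 670 of 675 with a replicate left out. For differences, slopes and ranges this meant the same direction and side of the threshold, where a range cannot change direction. For counts of called probes it meant a change within 1.5 times. The 5 *TEF1* retentostat differences kept direction and side of the threshold in all 214 refits, between −1.44 and −1.02. These refits include each scanner alone, and the −1.02 came from the second scanner, with 1 array of 0.1 h-1. Leaving out a replicate of neither compared condition cannot change a difference, only its adjusted p value. The pair, dye and replicate terms, the fits of only the compared conditions and the saturation filter also left each difference as it was. These counts thus include refits whose direction could not change. Counts of calls under each reference gene moved by less than 1.5 times. For *ACT1* on day 23 the difference reversed to 0.012 with the scanner software's ratio and lost its call in the authors' table (−0.10), with pairs as a random block (−0.092), slide (−0.10) or scanner (−0.093) as a fixed block, a dye term (−0.092) and the first scanner alone (−0.077), and ran from −0.11 to −0.068 with 1 replicate left out. Median centring gave *ACT1* a called difference at 0.025 h-1 (−0.24) and reversed its chemostat slope (0.085). The second scanner alone reversed that slope too (0.0064) and lost the retentostat slope of *ACT1* (0.017). The *ACT1* call at 0.05 h-1 was lost on the first scanner (−0.13), and that at 0.075 h-1 with the slide block (−0.21) and on either scanner (−0.19 and −0.29).

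The *TEF1* call at 0.075 h-1 was lost in the authors' table (−0.31), with pairs as a random block (−0.30), slide (−0.28) or scanner (−0.37) as a fixed block and on either scanner alone (−0.34 and −0.20). At 0.05 h-1 it was lost with the slide block (−0.48) and on the second scanner (−0.13), at 0.025 h-1 likewise (−0.34 and −0.32). The *TEF1* chemostat slope lost its call with slide (0.15), scanner (0.16) and the second scanner alone (0.13). Its retentostat slope ran from −0.031 to −0.022 with 1 replicate left out. The cause was not tested in any of these cases, and single-scanner fits use fewer arrays, taken singly, with 1 array of 0.1 h-1 on the second scanner, so their calls say little.

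The replicate number was also fitted as a replicate block. Same-numbered replicates of different conditions had a mean correlation of deviations of 0.016 (from −0.60 to 0.47, 108 pairs), and within the retentostat the mean was −0.043 (9 of 30 pairs over 0.1), so pairing by number was not shown. For *ACT1* alone, replicate 1 read above replicate 3 at 5 of 5 retentostat times, and for *TEF1* at 3 of 5. With the block *ACT1* on day 23 stayed at −0.092 (adjusted p = 0.0383), *TEF1* at −1.27 (adjusted p = 6.04e-13), and no call changed. The second scanner has no array of day 23, so that comparison and the 9-condition values could not be fitted there.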
